A study of Drosophila melanogaster with 4 samples.

Results

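The nuclear genes for the respiratory chain and ATP synthase were examined for binding of Chinmo in *Drosophila melanogaster* embryos. Members were defined by symbol, with earlier results of these data known. They were the nuclear protein-coding genes whose symbol starts with ND-, UQCR-, COX or ATPsyn, or is SdhA, SdhB, SdhC, SdhD, RFeSP or Cyt-c1. That gave 86 of 13968 genes, made up of 40 for complex I, 4 for complex II, 11 for complex III, 16 for complex IV and 15 for complex V. The samples were whole embryos aged 6 to 24 h from a transgenic strain that expresses Chinmo fused to enhanced GFP, immunoprecipitated with an antibody against GFP and sequenced (ChIP-seq). There were 4 biological replicates of 1 group, and no second genotype, stage or treatment, so the comparisons set these genes beside other genes of the same libraries. The fusion protein was precipitated from whole embryos of unrecorded sex, so each peak averages over all cell types, and a strong peak in few cells cannot be told apart from a weak peak in many.

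Complexes I to IV of the respiratory chain, in the inner mitochondrial membrane, pass electrons from NADH and succinate to oxygen. They pump protons across the membrane as they do so, except for complex II, which pumps none. Complex V, the ATP synthase, uses the proton gradient to make ATP. Most subunits are encoded in the nucleus and are needed in nearly all cells, and several have a second gene copy in flies, many of which are known for use in the testis. Chinmo, a nuclear protein with a BTB domain and zinc fingers, is known for setting the temporal identity of neurons and for maintaining stem cell identity in the testis.

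Chinmo-eGFP peaks lay at few of these genes, and those few differed widely in strength. A gene was called in a library when the summit of a peak from that library's thresholded list, which holds the peaks that met an IDR (irreproducible discovery rate) cut-off, lay within 1000 bp of any of its transcription start sites (TSS). ATPsynF, UQCR-14, COX6B and ND-B14.5A were called in 4 of 4 libraries, and COX7A, ND-SGDH and COX7C in 3. These 7 members were 8.14% of the 86 (exact 95% Clopper-Pearson interval 3.34% to 16.1%), beside 1854 of 13968 genes, or 13.3%, among all nuclear protein-coding genes. A peak in at least 1 library was found at 17 members (19.8%), against 3768 of all genes (27.0%), and the other 69 members had none. Without replicate 1, and with the call then asking for at least 2 of the 3 libraries left, the count was 11 members (12.8%), against 2260 of all genes (16.2%), and the 4 gained were ND-15, ND-B8, COX7B and ATPsynCF6. The interval of the members contained the 13.3% of all genes. It treats genes as independent and covers counting error only, and a gene without a listed peak is not a gene shown to be unbound.

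**Figure D1:**
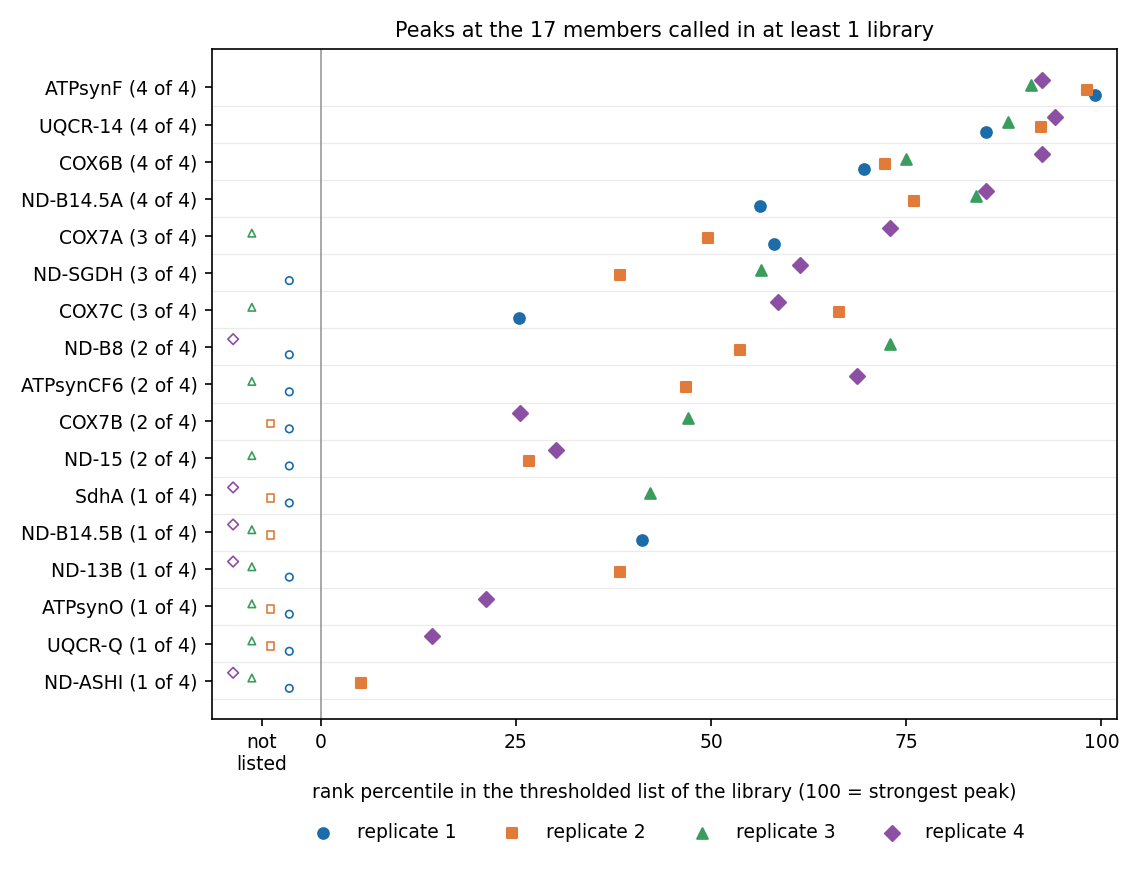
Strength of the thresholded peak at each of the 17 called members, as the percentage of that library's thresholded peaks with a signal value no higher. Each filled symbol is 1 of the 4 replicates and open symbols at the left mark libraries in which the member was not listed; ATPsynF lies above 90 in every library, whereas members called in 1 or 2 libraries lie below 75.

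Within the thresholded lists the strongest member peak stood at ATPsynF, which encodes subunit f of the membrane-embedded part of the ATP synthase. Strength is given as a rank percentile, the percentage of a library's thresholded peaks whose signal value, as deposited by the authors, was no higher. ATPsynF reached 99.1, 98.1, 91.0 and 92.4 in replicates 1 to 4, a mean of 95.2 ± 4.07 (SD, n = 4). UQCR-14, for a subunit of the cytochrome bc1 complex (complex III), followed with 85.2, 92.3, 88.0 and 94.0, a mean of 89.9 ± 4.03 (SD, n = 4). Their ranges overlapped. The ATPsynF region lay on 2R with its centre at 24599886 (dm6), 65 bp upstream of ATPsynF and 61 bp from the start of CG3548, an adjacent gene on the other strand.

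COX6B, for a subunit of cytochrome c oxidase (complex IV), had percentiles of 69.6, 72.3, 75.01 and 92.4 in replicates 1 to 4, and ND-B14.5A, for an accessory subunit of complex I, had 56.3, 76.0, 83.9 and 85.3. Their means of 77.3 ± 10.3 and 75.4 ± 13.4 (SD, n = 4 each) differed by less than the spread between libraries. Replicate 4 gave the highest value at both genes and replicate 1 the lowest.

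Of the 3 members called in 3 libraries, the missing library was not the same one each time. COX7A, another complex IV subunit, had percentiles of 58.1, 49.7 and 72.9 in replicates 1, 2 and 4 and no summit in either list of replicate 3. ND-SGDH, an accessory subunit of complex I, had 38.3, 56.5 and 61.4 in replicates 2, 3 and 4. In replicate 1 its summit was found only in the longer ranked list, at percentile 59.1 of that list. COX7C, also of complex IV, had 25.5, 66.4 and 58.6 in replicates 1, 2 and 4, and replicate 3 again held a peak only in its ranked list, at percentile 81.2 of that list.

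Of the remaining 10 called members, 4 were called in 2 libraries. They were ND-15 and ND-B8 of complex I, COX7B of complex IV and ATPsynCF6, the coupling factor 6 subunit in the stalk of ATP synthase. ND-B8 reached 53.8 and 72.9 in replicates 2 and 3, and ND-15 reached 26.6 and 30.1 in replicates 2 and 4. COX7B had 47.1 and 25.6 in replicates 3 and 4, and ATPsynCF6 had 46.8 and 68.7 in replicates 2 and 4. None of these 4 was listed in replicate 1. The other 6 were listed once each. They were SdhA, the flavoprotein subunit of succinate dehydrogenase (percentile 42.2, replicate 3), ND-B14.5B (41.1, replicate 1), ND-13B (38.4, replicate 2), ATPsynO, the stalk subunit that confers oligomycin sensitivity (21.2, replicate 4), UQCR-Q (14.3, replicate 4) and ND-ASHI (5.16, replicate 2).

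Summits at called members sat close to the start of transcription, though a call already required a summit within 1000 bp of a TSS. Distances were not measured for the regions of other genes, so closeness is not shown to be particular to members. Each of the 17 members had 1 bound region, formed by joining summits of the 4 lists whose windows of 100 bp to each side overlapped. The median distance between a region's centre and the member's nearest TSS was 65 bp, 15 regions lay within 200 bp, and 12 lay upstream. Exceptions were COX7C, whose summits lay 149, 249 and 290 bp downstream, and ND-B14.5B at 808 bp downstream, the member nearest to the limit from within. Just outside the limit were UQCR-11L, with its nearest thresholded summit at 1053 bp, ATPsyndelta at 1175 bp and ND-B14 at 1331 bp.

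**Figure D2:**
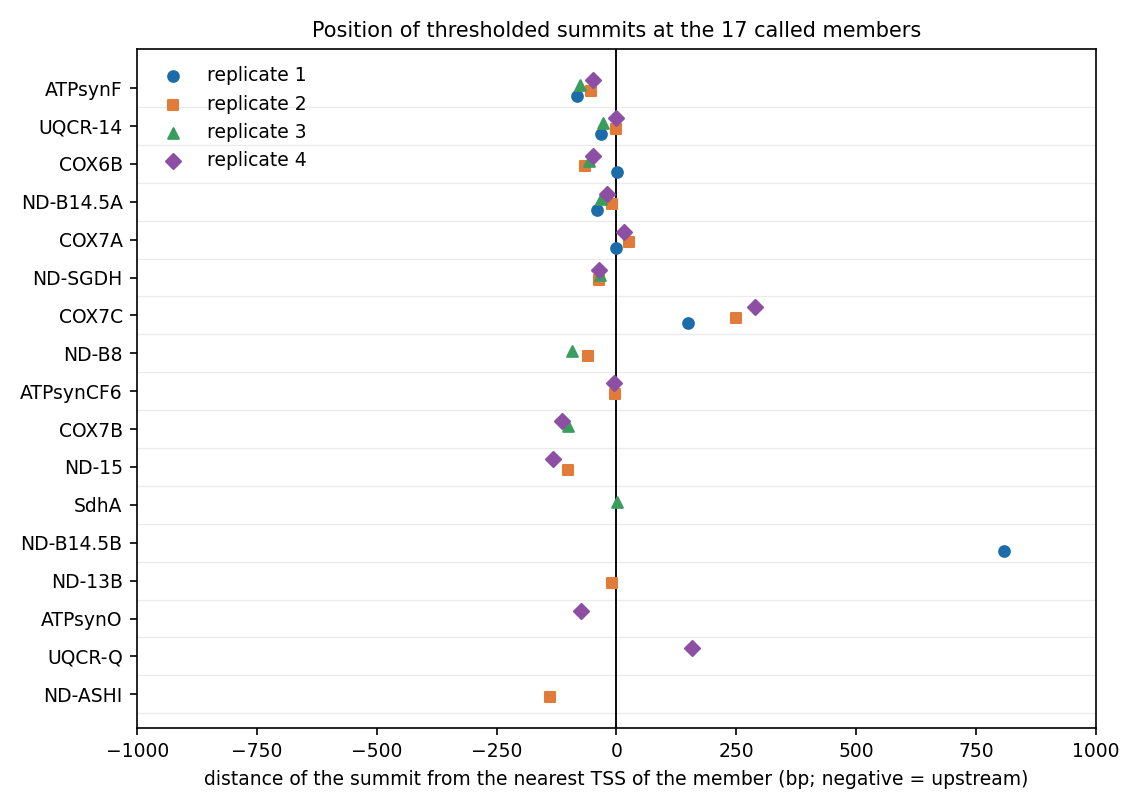
Signed distance in bp from each thresholded summit to the nearest TSS of the member, negative meaning upstream, with 1 symbol for each replicate. Summits of different replicates at the same member fall within 67 bp of each other except at COX7C, and only COX7C, UQCR-Q and ND-B14.5B lie more than 100 bp downstream.

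At most called members the peak also lay near another gene's start, so it could not be assigned to the respiratory gene alone. A second protein-coding gene had a TSS within 1000 bp of 13 of the 17 regions, and at 6 of them that TSS was nearer than the member's own. The same count was not made for the regions of other genes. With each summit given to its nearest TSS only, 4 members (4.65%) were called in at least 3 libraries, and ATPsynF, COX6B and COX7C were lost. The count of all genes fell as well, from 1854 to 1410 (10.1%). The region at COX6B, on chromosome X with its centre at 19744388 (dm6), lay 53 bp upstream of COX6B. The gene CG18809 starts at the same base on the same strand. The region also lay 43 bp from the shared start of CG33932 and Rpp20. ND-ASHI shared its region with Fum1, the gene of the citric acid cycle enzyme fumarase, whose start was 25 bp away against 139 bp for ND-ASHI. At ND-B14.5B the gene toc was nearer, at 127 bp. Regions at UQCR-14, ND-B14.5A, ND-15 and ATPsynO had no other protein-coding TSS within 1000 bp of their centre. The region at UQCR-14 (X, centre 16286273, 15 bp upstream) lay within the annotated 3' UTR of CG32576, and that at ND-B14.5A (X, centre 2172500, 26 bp upstream) was intergenic.

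The sequences under the peaks are shown for the members that carry an exact copy of the DNA replication-related element, TATCGATA, the site of the fly factor DREF, and for COX6B and ND-SGDH, called in at least 3 libraries without one. ATPsynF and COX7C, also called in at least 3 libraries without one, are not shown here. They are from the RefSeq genome of Release 6, which is dm6, read 5' to 3' on the strand of the member gene. Capitals mark TATCGATA, which reads the same on both strands. Each runs 50 bp to both sides of the region's centre, with annotated UTR bases removed, or, at UQCR-14 and COX7A, 30 bases round the element.
UQCR-14, chrX:16286215-16286244, plus strand: tgagtgcgataTATCGATAggtgcagtgtg
COX7A, chr3R:8341027-8341056, minus strand: cgacatcgatgTATCGATAatacatcgata
ND-B14.5A, chrX:2172450-2172525, plus strand: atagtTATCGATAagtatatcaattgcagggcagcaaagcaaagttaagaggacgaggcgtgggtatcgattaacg
ND-15, chr2L:114558-114658, plus strand: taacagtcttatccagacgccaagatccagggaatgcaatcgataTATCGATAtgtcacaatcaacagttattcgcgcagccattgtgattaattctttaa
COX6B, chrX:19744338-19744430, minus strand: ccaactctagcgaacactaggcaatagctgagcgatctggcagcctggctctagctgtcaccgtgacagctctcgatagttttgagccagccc
ND-SGDH, chr3L:12138585-12138670, minus strand: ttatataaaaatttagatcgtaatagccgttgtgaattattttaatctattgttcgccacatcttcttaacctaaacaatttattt

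In the windows of 101 bases round the region centres, TATCGATA was present at 3 of the 7 members called in at least 3 libraries (UQCR-14, COX7A and ND-B14.5A) and at 4 of all 17. For comparison, it was present in 182 of 1497 windows (12.2%) at the promoter regions shared by at least 3 libraries. The shorter letters ATCGAT, which lie inside TATCGATA, were searched after the values were seen. They were present at 4 of the 7 members called in at least 3 libraries (57.1%), against 26.6% of the 1497. Of all 17 member windows 8 held them (47.1%). For both sets of letters, the 17 include regions of 1 or 2 libraries, which the 1497 do not. The letters ATCGAT occurred 3 times each at COX7A and UQCR-14, counting the copy inside TATCGATA, and 2 times each at ND-B14.5A, ND-15 and ATPsynF, as far as the 101 bases reach. No copy was in the windows of COX6B, COX7C or ND-SGDH. Other letters were searched in the windows of the 7 members too. TATAAA was present at 2 (28.6%), against 5.34% of the 1497, GAGAG at 1 (14.3%), against 24.8%, and CACGTG at 0, against 1.80%. These matches describe letters and not sites of a factor.

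The element was also counted across whole promoters, with no test of the difference. In the 300 bases from 250 before to 50 after the start of the longest transcript, TATCGATA was found at 8 of 86 members (9.30%), against 8.98% of all genes. All 8 were among the 69 members that are not duplicate copies (11.6%). It was found at 3 of the 7 called members and 5 of the 79 others, against 19.0% of all genes called in at least 3 libraries. ND-15, with TATCGATA in its peak window, was not among these, because its longest transcript begins at another start than the one by the peak. The E-box letters CACGTG were found at 4.65% of members, against 4.25% of all genes. GAGAG, searched on both strands, was found at 22.1% of members, against 30.4% of all genes. TATAAA, also on both strands, was found at 48.8% of members, against 45.3% of all genes. Of the 7 called members, 4 held GAGAG (57.1%), against 19.0% of the 79 others and 37.9% of all genes so called. TATAAA was at 4 of the 7 as well (57.1%), against 48.1% and 36.3%, and CACGTG at 1 (14.3%), against 3.80% and 5.12%. The nuclear respiratory gene element, a degenerate motif reported at mitochondrial genes of *Drosophila*, was in 0 member promoters and in 0.859% of all promoters. The median GC content was 34.7% in member promoters, against 38.0% in all promoters.

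Library by library, the share of called members was below that of all genes each time. Replicate 1 had a thresholded summit at 7 members (8.14%), against 16.2% of all genes. Replicate 2 had 12 (14.0%), against 20.7%, replicate 3 had 8 (9.30%), against 13.2%, and replicate 4 had 12 (14.0%), against 17.4%. The mean over the 4 libraries was 11.3% ± 3.06 for members, against 16.9% ± 3.14 for all genes (SD, n = 4 each). The difference of -5.53 ± 2.23 percentage points (SD over 4 libraries) had the same sign in 4 of 4 libraries, which score the same 86 genes. Its direction depends on the distance allowed, since with 5000 bp in place of 1000 bp the difference was 3.57 percentage points, and without the duplicate copies it was -2.74. No test of the list was made, and other features of the genes, such as their number of start sites, were not adjusted for.

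The ranked lists, which hold many weaker peaks, showed no difference of one sign. A ranked summit lay at 65 members (75.6%) in replicate 1, against 66.7% of all genes, and at 52 (60.5%) in replicate 2, against 57.8%. In replicate 3 it lay at 44 (51.2%), against 59.5%, and in replicate 4 at 59 (68.6%), against 65.9%. The difference changed sign between libraries, with a mean of 1.47 ± 7.18 percentage points (SD, n = 4), smaller than its spread. Without the duplicate copies the mean ranked share was 70.7% and its difference from all genes 8.17 percentage points. In at least 3 libraries a ranked summit was found at 52 members (60.5%), against 56.8% of all genes. Where a ranked summit was present, the median percentile of the strongest one was lower in members in every library, at 75.5, 67.7, 73.6 and 75.8 in replicates 1 to 4, against 79.0, 75.5, 76.9 and 79.3 for all genes.

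**Figure D3:**
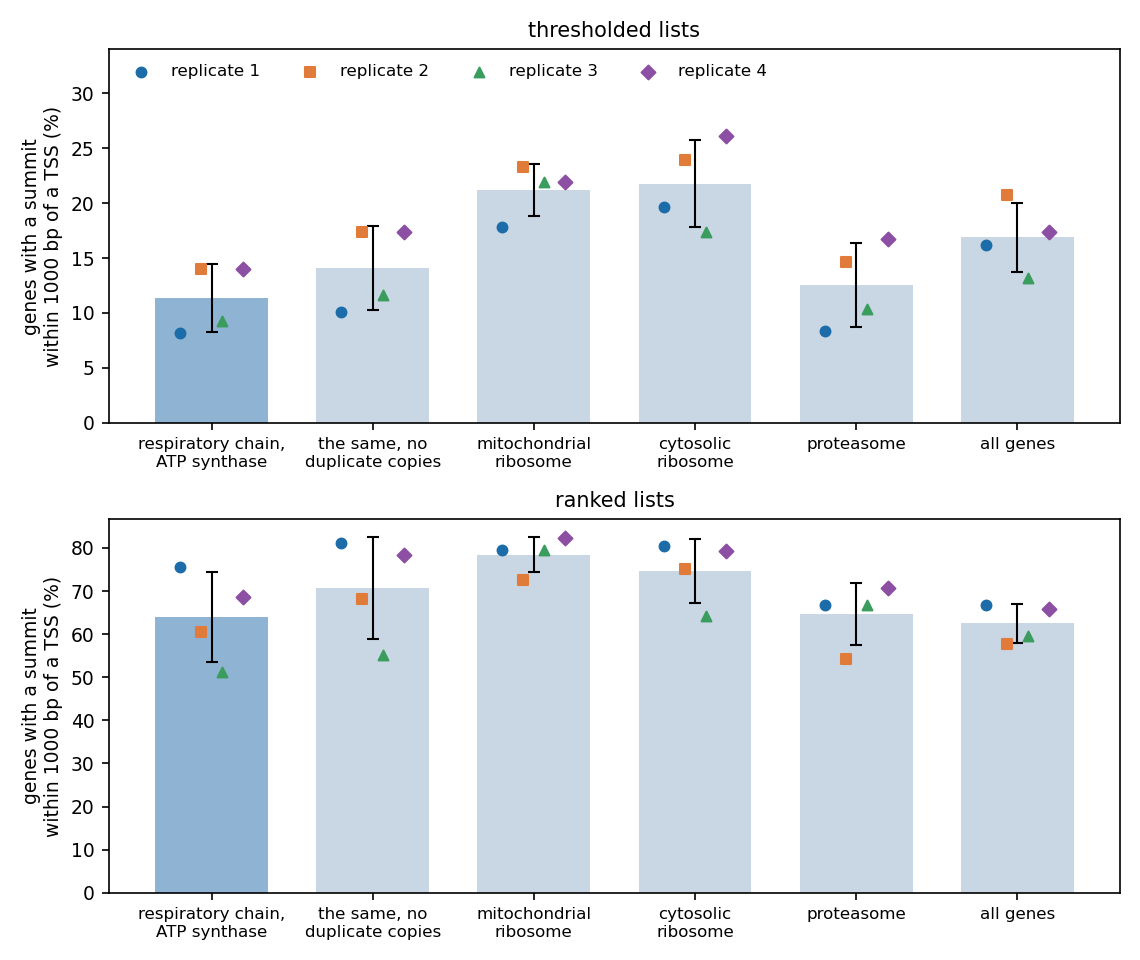
Percentage of genes with a summit within 1000 bp of a TSS, in the thresholded lists (upper panel) and the ranked lists (lower panel), for the respiratory genes, the same without duplicate copies, 3 other groups and all genes. Bars are means over the 4 libraries, error bars are SD and symbols are single libraries; in the upper panel the respiratory genes average 11.3% and all genes 16.9%.

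Other large groups of widely used genes were counted in the same way. Of the 73 genes for mitochondrial ribosomal proteins, 12 (16.4%) were called in at least 3 libraries, and of the 92 for cytosolic ribosomal proteins 14 (15.2%). For proteasome subunits it was 5 of 48 (10.4%). The interval of the respiratory genes, 3.34% to 16.1%, contained the shares of the last 2 groups and the 13.3% of all genes, but not 16.4%. The intervals of all 4 groups overlapped. No test between groups was run.

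By complex, the called genes were spread thinly. Complex IV had 3 of 16 members called in at least 3 libraries (COX6B, COX7A and COX7C), complex I 2 of 40 (ND-B14.5A and ND-SGDH), complex III 1 of 11 (UQCR-14), complex V 1 of 15 (ATPsynF) and complex II 0 of 4. The exact intervals of complex IV (4.05% to 45.6%) and complex I (0.611% to 16.9%) overlapped. In complex I the 7 nuclear core subunits that carry the flavin and iron-sulfur clusters or form the quinone site (ND-75, ND-51, ND-49, ND-30, ND-24, ND-23 and ND-20) had 0 thresholded summits in any library. Among the 27 other complex I members that are not duplicate copies, 7 were called in at least 1 library and 2 in at least 3, and of all genes 27.0% were called in at least 1 and 13.3% in at least 3. This division of complex I was made after the values were seen, holds few genes and was not tested. Of the core subunits, ND-30 and ND-24 had ranked summits in 4 libraries and ND-23 in 3.

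The libraries differed in the share of each complex that had ranked peaks. Ranked summits were found at 33, 22, 17 and 25 of the 40 complex I genes in replicates 1 to 4, and at 8, 8, 3 and 8 of the 11 complex III genes. Complex II had 2, 2, 3 and 4 of its 4 genes, complex IV 11, 11, 10 and 11 of 16, and complex V 11, 9, 11 and 11 of 15. Of all genes, 66.7%, 57.8%, 59.5% and 65.9% had a ranked summit in replicates 1 to 4, lowest in replicate 2. Replicate 3 had the lowest count for complexes I, III and IV but not for II and V. Replicate 3 was also the library with the shortest thresholded list, of 2225 peaks against 3435, 4415 and 3038 in replicates 1, 2 and 4. Its ranked list was not the shortest. The part of library quality in these differences was not tested, because the lists hold no read counts.

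**Figure D4:**
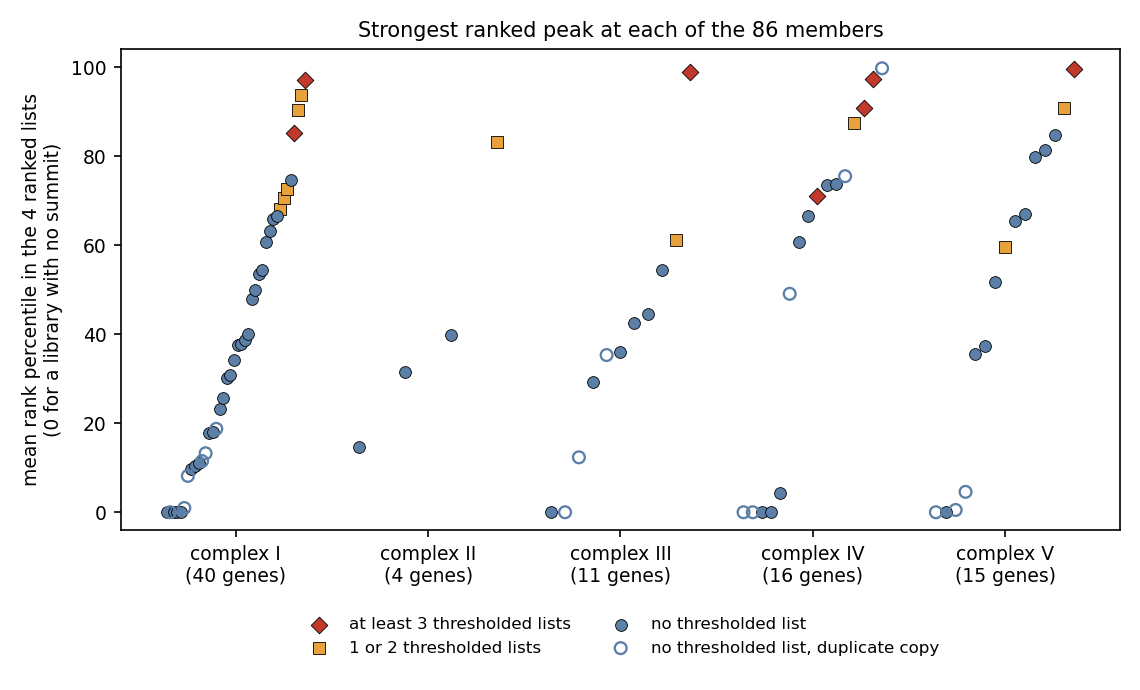
Mean rank percentile, over the 4 ranked lists, of the strongest ranked peak within 1000 bp of a TSS of each of the 86 members, grouped by complex and sorted within it, with 0 entered for a library without a summit. Red diamonds mark members called in at least 3 thresholded lists, orange squares 1 or 2, and open circles duplicate copies; the open circle at the top of complex IV is COX7AL2, at 99.7.

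No duplicate copy was called in any library. A copy was defined by its symbol, as another member's symbol followed by L and, in some, a number. There were 17 copies of 15 partner genes, and 0 of 17 had a thresholded summit in any library (exact 95% Clopper-Pearson upper limit 19.5%), whereas 5 of the 15 partners had one, beside 27.0% of all genes. The other 69 members had 7 called in at least 3 libraries (10.1%), against 13.3% of all genes, and 17 in at least 1 (24.6%), against 27.0%. In the ranked lists 4 copies (23.5%) had a summit in at least 3 libraries, against 48 of the 69 other members (69.6%) and 56.8% of all genes. A copy was in fewer ranked lists than its partner in 10 of the 17 pairs, in more in 5 and in as many in 2. UQCR-14L and ATPsynCF6L had no ranked summit in any library, whereas their partners UQCR-14 and ATPsynCF6 had one in all 4. UQCR-11L went the other way, with ranked summits in 4 libraries beside 0 for UQCR-11. ATPsynbetaL did so too, with 1 beside 0 for ATPsynbeta. UQCR-11 and ATPsynbeta lie in stretches, described below, where most genes had no ranked summit. The part of location in these pairs was not tested. Further L-named genes whose partner carries another name (COX6AL, COX6AL2, COX6CL and ATPsynepsilonL), and those that the symbol rule does not take in (SdhAL, SdhBL, SdhCL and Cyt-c1L), were likewise called in 0 libraries.

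One copy, COX7AL2, had a far stronger peak than any other member outside the thresholded lists. Its strongest ranked peak had signal values of 154, 336, 193 and 168 in replicates 1 to 4 and stood at ranks 59, 57, 85 and 160 of the ranked lists, percentiles of 99.9, 99.8, 99.7 and 99.5. For comparison, the peak at ATPsynF had signal values of 168, 291, 140 and 141 in the same libraries, higher than COX7AL2 in replicate 1 and lower in replicates 2 to 4. The COX7AL2 summits lay 611 to 675 bp upstream of the nearest COX7AL2 start and inside the gene, which is on the minus strand of 2L from 2192525 to 2197912. This peak was not alone: the ranked lists held 9, 8, 5 and 8 peaks in the gene or within 1000 bp of it in replicates 1 to 4. Of these, 5, 7, 4 and 4 scored at least 830, the lowest score in the thresholded lists. The strongest had a deposited score of 1000 in each of the 4 libraries. Yet no thresholded list held any peak in the gene or within 1000 bp of it. The conservative and the longest lists of the whole series held none there either. Between 4.33% and 5.32% of ranked peaks past a score of 830 were missing from the thresholded list of their library in this way, and the step that leaves them out is not given in the sources used here. Where ranked peaks past that score are counted as called, 8 members (9.30%) pass in place of 7, COX7AL2 being the 1 gained. The count of all genes rises as well, from 1854 to 1934 (13.8%).

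The 101 bases at this peak are shown because their composition differs from that of the called promoters. Their GC content was 66.3%, and no TATCGATA was present. Each of their 71 overlapping words of 31 letters occurred 1 time on the chromosome arms searched, so the site is not an exact repeat at that length.
COX7AL2, chr2L:2193579-2193679, minus strand: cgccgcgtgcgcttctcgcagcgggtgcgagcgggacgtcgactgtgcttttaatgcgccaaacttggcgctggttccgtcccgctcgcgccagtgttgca

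In each other complex, the uncalled member with the highest mean ranked percentile, a library without a summit entering as 0, was examined too. These had lower means and wider spreads than COX7AL2. ATPsynC, the subunit of the proton-conducting ring of ATP synthase, had ranked percentiles of 85.9, 78.1, 81.0 and 93.8 in replicates 1 to 4. In replicate 4 its score was also 1000 without a thresholded peak. ND-PDSW, an accessory subunit of complex I that shares its promoter with msl-2, had 79.4, 85.4, 75.1 and 58.7. SdhB, the iron-sulfur subunit of complex II, had 62.3, 81.4 and 15.6 in replicates 1, 3 and 4 and no ranked summit in replicate 2. These percentiles refer to the ranked lists, and so they are not on the scale of the thresholded percentiles above.

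RFeSP, the Rieske iron-sulfur protein of complex III, is of interest because it is a neighbour of chinmo itself. It lies on the minus strand of 2L from 1612429 to 1614160, and the chinmo gene begins 37098 bp beyond it. No library had a thresholded summit within 1000 bp of its start. The nearest one lay 4761, 4709, 4755 and 4710 bp away in replicates 1 to 4, on the side of chinmo and close to the same position each time, with percentiles of 43.4, 44.3, 15.0 and 35.8. At its promoter, ranked summits lay 107 to 225 bp upstream in replicates 1, 2 and 4, at percentiles of 88.7, 68.9 and 60.3, and replicate 3 had none. The strain carries an insertion aimed at chinmo, and whether that bears on peaks near the gene was not tested.

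Of the 86 members, 13 had no ranked summit in any library (15.1%), against 19.0% of all genes. Besides 5 duplicate copies and the L-named genes COX6AL and COX6CL, they were ND-B17 and 5 genes that lie in 2 particular stretches of the genome. ND-49 and ATPsynbeta, the core quinone-site subunit of complex I and the catalytic subunit of ATP synthase, are the only members on chromosome 4, where 50 of 80 genes (62.5%) had no ranked summit. ND-MLRQ, ND-AGGG and UQCR-11 lie at the centromere end of 3L, at starts of 23339326, 24976254 and 25120709. From ND-MLRQ to that end of the arm, 28 of 29 genes (96.6%) had no ranked summit, against 17.8% of the 2710 genes before it. The stretch was chosen after the values were seen. Their nearest thresholded summits were 451078, 2088006 and 2232461 bp away. Whether reads could be placed in these stretches was not tested.

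Members that share a promoter region with another gene had ranked summits more often. A TSS of another protein-coding gene lay within 1000 bp of a member TSS for 51 members, and 41 of them (80.4%) had a ranked summit in at least 3 libraries, against 70.3% of all genes with such a neighbour. Of the 35 members without such a neighbour, 11 (31.4%) did, against 46.7% of all such genes. For thresholded summits in at least 3 libraries the counts were 5 of 51 (9.80%) with a neighbour, against 17.1% of all such genes, and 2 of 35 (5.71%) without, against 10.4%. The number of annotated starts moved with the calls as well. Members with at least 2 starts were called in 5 of 34 cases (14.7%), against 24.7% of all such genes, and members with 1 start in 2 of 52 (3.85%), against 9.16%. By chromosome, X held 3 of its 12 members called in at least 3 libraries (ND-B14.5A, UQCR-14 and COX6B, all called in 4), beside 13.3% of all X genes, and 2L held 0 of 17, beside 12.8%.

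Other genes linked to mitochondria were counted in the same way. They were subunits and electron carriers under other names, and, for the larger part, genes of related processes. Of 40 such genes in 6 lists, 14 were called in at least 3 libraries (35.0%), against 13.3% of all genes, and 36 had a ranked summit in at least 3 (90.0%), against 56.8%. No test of the difference from the members was run. These lists hold few genes and were assembled with results of these data known, so the shares describe the listed genes only. Among subunits and electron carriers named otherwise, 2 of 7 were called in at least 3 libraries: Cyt-c-p, the somatic cytochrome c, in 4 libraries and levy, a complex IV subunit, in 3. The alpha subunit of ATP synthase, blw, was called in 0. In the citric acid cycle 5 of 11 reached 3 libraries, with Ogdh, Scsalpha1 and ScsbetaA in 4 libraries and Idh3b and Mdh2 in 3. For the maintenance and transcription of mitochondrial DNA it was 3 of 8, with PolG2 and mtSSB in 4 libraries and mtTFB1 in 3. Both adenine nucleotide carriers were called, sesB in 4 libraries and Ant2 in 3, and porin in 0. Among transcription regulators linked to mitochondrial genes, ewg was called in 4 libraries and Dref in 0, and among the 6 assembly factors Ccdc56 was called in 3 and Sirup in 2. The names Nc73EF, Sdhaf4 and Coa3 were matched through older symbols, and SdhAF1 matched no gene of the annotation.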

How the data were processed

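For each library the authors deposited a thresholded and a ranked peak list on assembly dm6, per the labels. Each peak has a signal value and a score deposited by the authors. The signal value is the peak's own, has no stated unit and was used only to rank peaks within a list. Neither aligner nor peak caller is given in the sources used here. Control libraries were not analysed here, and read depth is unknown, because the lists hold no counts. The labels' antibody field names Chinmo while their description names GFP, which was followed, and the age was taken from the source label.

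Gene starts came from Ensembl BDGP6 (release 115) and sequence from RefSeq (genome Release 6). A gene was called in a library when a summit lay within 1000 bp of a TSS, and 3 of 4 libraries made the main count. Calls were checked on simulated peaks, where 0 genes differed from the known answer. Shares carry exact 95% Clopper-Pearson intervals. Python 3.11.15, pandas 2.3.3 and scipy 1.17.1 were used. The members, lists and motifs were chosen with earlier results of these data known. The members named are those called in at least 1 library, RFeSP, and the strongest uncalled member of each complex by mean ranked percentile, with 0 for a library without a summit; those named as lacking ranked peaks, the core subunits, copies and genes near the distance limit were picked after their values were seen. Nothing was compared between conditions, since the labels give 1 group.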

Additional observations from a re-analysis of the deposited data

How the results depend on the processing

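The count of members called in at least 3 libraries was 7, beside 1854 of all genes. It was 11 (all genes 2285) with a TSS window of 2000 bp, 28 (all genes 3674) with 5000 bp and 4 (all genes 1020) from the upper 50% of each list. It was 4 (all genes 1410) when each summit was given to its nearest TSS only, which lost COX7C, ATPsynF and COX6B. With at least 1, 2 or 4 libraries it was 17, 11 and 4, beside 3768, 2682 and 1120 of all genes. The conservative list of the whole series gave 12 (all genes 3215) and the longest 36 (all genes 6183). Leaving out 1 library, with the call asking for at least 2 of the 3 left, gave 8 to 11, kept all 7 members, and was highest without replicate 1 (all genes 2260), which added ND-15, ND-B8, COX7B and ATPsynCF6. The members' share was below that of all genes in every one of these settings except 5000 bp, where it was 32.6% against 26.3%. The mean share of members with a thresholded summit, 11.3%, became 16.9% at 2000 bp, 35.2% at 5000 bp, 7.27% in the upper 50% and 7.85% for the nearest TSS only. The thresholded difference of -5.53 percentage points became 3.57 at 5000 bp, -2.52 in the upper 50%, -1.89 where the peak had to cover the TSS and -2.74 without the duplicate copies, the last chosen after seeing the data. Leaving out 1 library gave -6.23 to -4.70. The mean ranked share of 64.0% became 76.5% at 2000 bp, 49.4% in the upper 50% and 51.7% for the nearest TSS only. The ranked difference of 1.47 reversed to -1.58 for the nearest TSS only and to -1 without replicate 1, within -1 to 4.74 over the 4 libraries left out, and was 8.17 without the duplicate copies. The cause of these changes was not tested. COX7C was also lost where the peak had to cover the TSS, ND-SGDH and COX7C where lists were cut to the shortest, COX7A, ND-SGDH and COX7C in the upper 50%, and ND-SGDH in the conservative list. A window of 500 bp and the TSS of the longest transcript kept the 7 calls, beside 1560 and 1612 of all genes. No paired analysis was possible because there is 1 group. Depth is unknown, so a weak peak missing from 1 library cannot be told apart from one that fell below its list's threshold.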
